A study of Mus musculus with 23 samples.

Results

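The nuclear genes of oxidative phosphorylation were followed in 23 single neurons of the mouse arcuate hypothalamus. They were taken by symbol: genes of the Nduf families A, B, C, S and V, Sdha to Sdhd, and genes whose symbols start with Uqcr, Cox4 to Cox8 or Atp5, with the Ndufaf assembly factors left out. This gave 84 of the 23400 genes in the table, 35 of complex I, 4 of complex II, 8 of complex III, 20 of complex IV and 17 of complex V, each with 1 row. Ndufa4 and its paralog Ndufa4l2 were placed in complex IV, where the Ndufa4 protein is now known to sit. Atp5s, Atp5sl and Cox7a2l match the symbols but are not core subunits. The table held 0 genes of the mitochondrial chromosome, so the subunits encoded there were not analysed here.

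All cells came from young adult vGLUT2-IRES-Cre::loxSTOPlox-L10-GFP mice of mixed background, 2 males according to the study's design text, and no cell had a treatment or a control group. In these mice Cre is made under the gene of the glutamate transporter VGLUT2 and switches on a GFP fused to the ribosomal protein L10, so a GFP-positive cell is one in which that gene has been active at some time. GFP-positive cells of the dissected arcuate nucleus were picked by hand, and each library is 1 cell amplified by SmartSeq2. The labels tie no cell to a mouse, so the 23 cells are 1 group, cells are not replicates, and every comparison is a description without a test.

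Oxidative phosphorylation takes electrons from NADH (complex I) and succinate (complex II) through complexes III and IV to oxygen, and uses the proton gradient made on the way to drive ATP synthase (complex V). Complexes I, III, IV and V mix subunits from the nucleus with a few from mitochondrial DNA, while complex II is wholly nuclear. Neurons depend on this pathway for most of the ATP spent on ion pumping and synaptic transmission. Several complex IV subunits have a ubiquitous form and a second form made mainly in heart and skeletal muscle, lung or testis.

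Values are FPKM (a gene's fragments, corrected for transcript length and for the size of the library), and log values are log2(FPKM + 1). The number of genes at or above 1 FPKM ran from 4054 in cell 17 to 8042 in cell 13, and estimated relative depth differed by up to 4.17-fold. This estimate is the most frequent ratio of values under 0.5 FPKM between a cell and cell 12. Of 6 neuronal marker genes, 5 reached 1 FPKM in 12 or more cells. None of the markers of astrocytes, oligodendrocytes, microglia, endothelium or mural cells did so. Summed astrocyte markers had a median of 0.181 FPKM and a highest value of 166 FPKM in cell 12. Summed red blood cell markers had a median of 113 FPKM and a highest value of 2398 FPKM in cell 19. The part of such RNA in the values below was not tested. Cell 17 stood apart from the others. Its own values are described below, and the Kiss1-high cells and the title sets are also compared without it.

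Transcripts of the pathway's nuclear genes were present as a nearly complete set in each neuron. Of the 84 members, 70 reached 1 FPKM in all 23 cells, against 7.2% of all genes in the table, and 64 reached 10 FPKM in all 23, against 3.06% of all genes. The median over cells was at least 10 FPKM for 74 members, against 15% of all genes, and at least 100 FPKM for 64. No member with a median of at least 10 FPKM was listed at 0 in any cell. Once the 8 tissue-type forms and the 3 genes that are not core subunits are set aside, 73 subunit genes remain, and 69 of these reached 1 FPKM in every cell. The remaining 4 were Ndufs1 (22 cells), Sdhd (22 cells), Sdhc (21 cells) and Ndufs5 (16 cells).

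**Figure D1:**
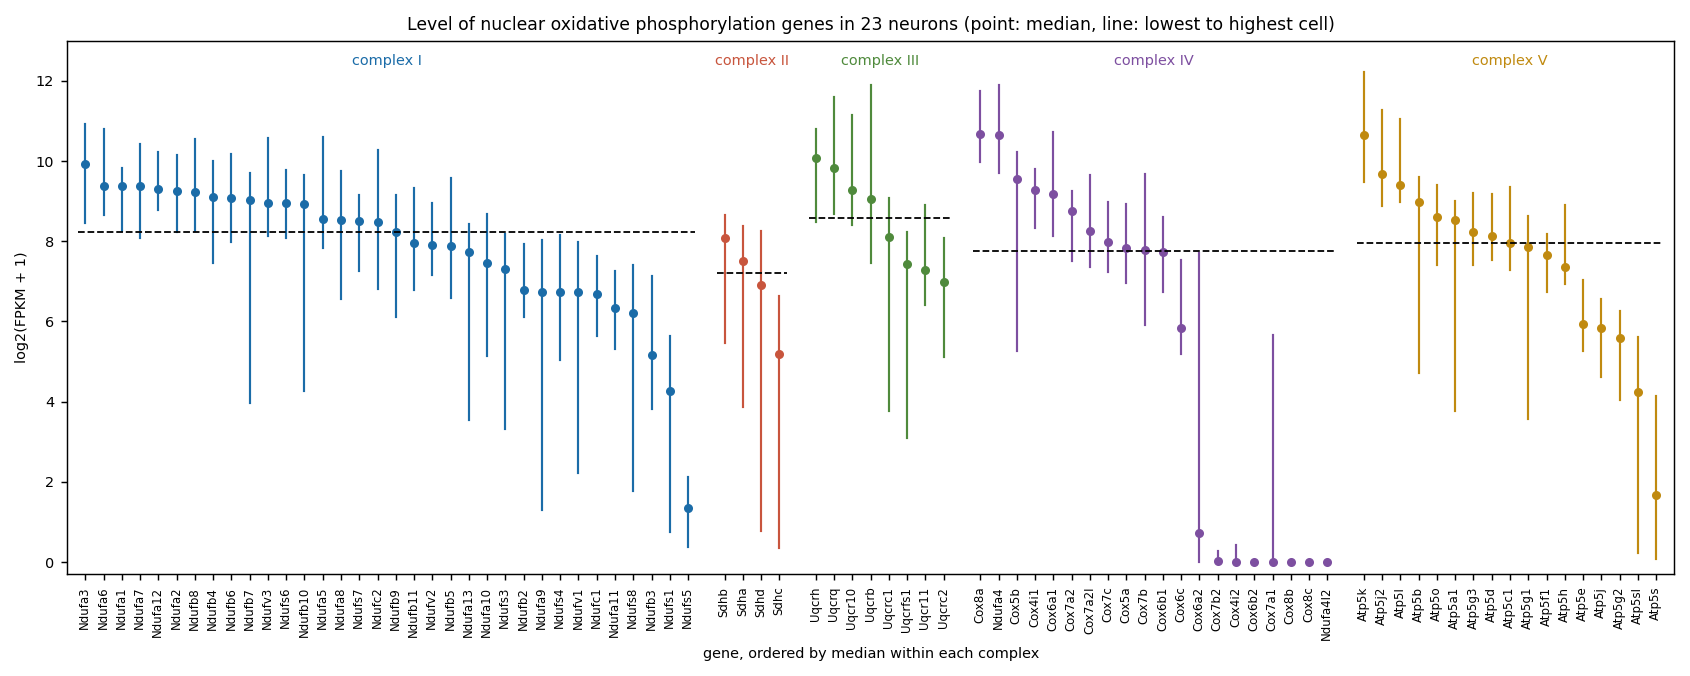
Level of the genes on the log2(FPKM + 1) scale, grouped by complex and ordered by median within it; points are medians of 23 cells, lines run from the lowest to the highest cell, and dashed lines are the median over the members of a complex. Most members sit above the level of 100 FPKM, while 6 tissue-type forms of complex IV lie at or near 0 in every cell.

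By complex, the median member had 403 FPKM in complex III, 298 FPKM in complex I, 246 FPKM in complex V, 215 FPKM in complex IV and 149 FPKM in complex II. On the log2 scale these medians were 8.58 ± 0.46, 8.22 ± 0.30, 7.95 ± 0.26, 7.75 ± 0.40 and 7.20 ± 0.98 (SD over 23 cells). Each complex differed from its neighbour in this order by less than the larger of their SDs over cells. Within single cells complex III was the highest in 18 cells and complex I in 5, and complex II was the lowest in 15. This order and these counts of cells include the 8 tissue-type forms in complex IV. Among the members with a median of at least 10 FPKM, which leaves out the tissue-type forms, Ndufs5 and Atp5s, complex IV came after complex III and before complex I. The medians were then 403 FPKM in complex III, 368 FPKM in complex IV, 328 FPKM in complex I, 262 FPKM in complex V and 149 FPKM in complex II. Members of 1 complex also differed from each other. The highest of these members exceeded the lowest 53.3-fold in complex I, 29.4-fold in complex IV, 8.61-fold in complex III and 7.63-fold in complex II. In complex V the figure was 89.7-fold, but its lowest member there, Atp5sl (18 FPKM), is not a subunit of that complex. The lowest complex V subunit at that level was Atp5g2 (46.7 FPKM) and the highest Atp5k (1612 FPKM).

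Within complex I, the core subunits of the electron path, such as Ndufv1, which binds the flavin, and Ndufs1, were lower than the accessory subunits. The 7 core genes had a median of 138 FPKM and the 28 accessory genes 370 FPKM, and the accessory median was above the core median in 23 of 23 cells. The core genes also have longer transcripts, with a median of 1623 bases against 718 bases. Across the 74 members with a median of at least 10 FPKM, Spearman's rho of level with transcript length was −0.37, and across the 3387 coding genes at that level it was −0.44. These are correlations across genes, which share the same libraries, and the part of length in the core-accessory difference was not tested.

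Among the accessory genes, Ndufa3, a small subunit with 1 membrane helix (chr7:3617373-3620161 on mm10), had 967 FPKM in the median cell, with 347 FPKM in the lowest and 1937 FPKM in the highest. Ndufa6, a member of the LYR family of small mitochondrial proteins, followed with a median of 670 FPKM (401 to 1778). Ndufa1, whose gene lies on chromosome X (chrX:37187589-37191238), had 669 FPKM (304 to 907). At the low end, Ndufs1, the largest core subunit and a carrier of several iron-sulphur clusters, had a median of 18.1 FPKM (0.679 to 48.5, chr1:63143592-63176822).

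Ndufs5, an accessory subunit on chromosome 4, had the lowest complex I value, 1.54 FPKM in the median cell (0.288 to 3.32). This value cannot be read as the level of the gene. At the same locus (chr4:123712710-123718186 for Ndufs5, chr4:123712710-123718161 for the other) the table lists BC002163 in 2 rows, which sum to a median of 885 FPKM (567 to 1462). GENCODE places a gene called BC002163 elsewhere, as a processed pseudogene on chromosome 16. Of the 50-base windows of the Ndufs5 transcript, 41.2% occur in another annotated gene. Ndufs5 and BC002163 together had a median of 887 FPKM (568 to 1463), and how the authors' counting divided the reads between these names was not tested.

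Other members share sequence as well. In 38 of the 84 no 50-base window was found in another GENCODE gene, in 35 at least 5% of windows were, and in 16 at least 25%. Cox7c, a small membrane subunit of complex IV, shares 53% of its windows with other annotated genes, among them the processed pseudogene Gm10012. Cox7c was listed at a median of 253 FPKM and Gm10012 at 697 FPKM. The split of reads within such pairs is uncertain. Left without the members that share at least 25% of windows, the median member of complex III was at 8.11 on the log2 scale, against 8.58 with all its members, and that of complex IV at 5.83, against 7.75. Complexes I, V and II were then at 8.36, 8.04 and 7.20, so that complex I came before complex III, and complex IV after complex II, in the order of levels. The complex IV median still counted the 8 tissue-type forms and was the value of Cox6c alone (56 FPKM). It therefore does not place the ubiquitous complex IV subunits below complex II.

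Complex II, which oxidises succinate in the citrate cycle, had Sdhb, the iron-sulphur subunit, at 272 FPKM in the median cell (43.2 to 404), and Sdha, the flavoprotein, at 180 FPKM (13.7 to 335). Its membrane anchors were lower: Sdhd at 118 FPKM (0.698 to 303) and Sdhc at 35.6 FPKM (0.280 to 98.0). In complex III the hinge subunit Uqcrh (chr4:116066965-116075070) led with 1085 FPKM (358 to 1779). Uqcrq followed with 902 FPKM (409 to 3081) and Uqcr10 with 620 FPKM (338 to 2265), both small membrane subunits. The lowest were Uqcr11, another small subunit, at 156 FPKM (84 to 479) and Uqcrc2, a large core protein, at 126 FPKM (33.5 to 271).

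Complex IV held 2 of the 4 members above 1000 FPKM, a level reached by 57 genes of the whole table. Cox8a, the ubiquitous form of a small membrane subunit (chr19:7215158-7217616), had 1647 FPKM (1015 to 3424) and ranked 25 among all genes by median. Ndufa4, on chromosome 6 (11900373 to 11907446), had 1592 FPKM (838 to 3778). Cox5b, which binds zinc on the matrix side, had 745 FPKM (37.7 to 1191), and its lowest value came from cell 17.

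In complex V the most abundant transcripts were those of small membrane subunits around the dimer interface. Atp5k, subunit e (chr5:108433253-108434378), had 1612 FPKM in the median cell (716 to 4803). Atp5j2, subunit f, had 811 FPKM (470 to 2455), and Atp5l, subunit g, 677 FPKM (502 to 2099), although 84.8% of the windows of Atp5l occur in other annotated genes. The catalytic beta subunit Atp5b had 508 FPKM (25.2 to 781) and the alpha subunit Atp5a1 371 FPKM (12.7 to 512). At the low end were Atp5sl, an assembly protein of complex I in spite of its symbol, with 18 FPKM (0.163 to 48.3), and Atp5s, a coupling factor, with 2.17 FPKM (0.0577 to 16.6).

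Subunit c, which forms the rotor ring, is encoded by 3 genes whose mature proteins are identical. Atp5g3 had a median of 297 FPKM (168 to 593), Atp5g1 231 FPKM (10.8 to 395) and Atp5g2 46.7 FPKM (15.5 to 75). Atp5g3 was the highest of the 3 in 20 cells and Atp5g1 in 3. In the median cell Atp5g3 made up 55.4% of their summed FPKM, Atp5g1 37.6% and Atp5g2 7.31%. All of the windows of Atp5g2 occur in other annotated genes, so its share is uncertain.

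For the tissue-type forms the picture was close to all or none. In 8 pairs of a ubiquitous and a tissue-type form, the ubiquitous form was higher in 23 of 23 cells. Cox6b1 had a median of 210 FPKM (105 to 385), Cox8a 1647 FPKM and Ndufa4 1592 FPKM. Their partners Cox6b2 and Cox8c, both made mainly in testis, Cox8b, made in heart and skeletal muscle, and Ndufa4l2, induced by hypoxia in other cells, were listed at 0 in every cell. Cox7b had 219 FPKM (58.7 to 822), whereas its testis form Cox7b2 reached at most 0.214 FPKM. Cox4i1 had 616 FPKM (321 to 884), whereas Cox4i2, the lung and hypoxia form, reached at most 0.333 FPKM and was listed at 0 in 21 cells. For each of these 6 forms, 0 of 23 cells at 1 FPKM allows a share of up to 14.8% of such cells (exact Clopper-Pearson 95% interval, which covers counting error only).

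**Figure D2:**
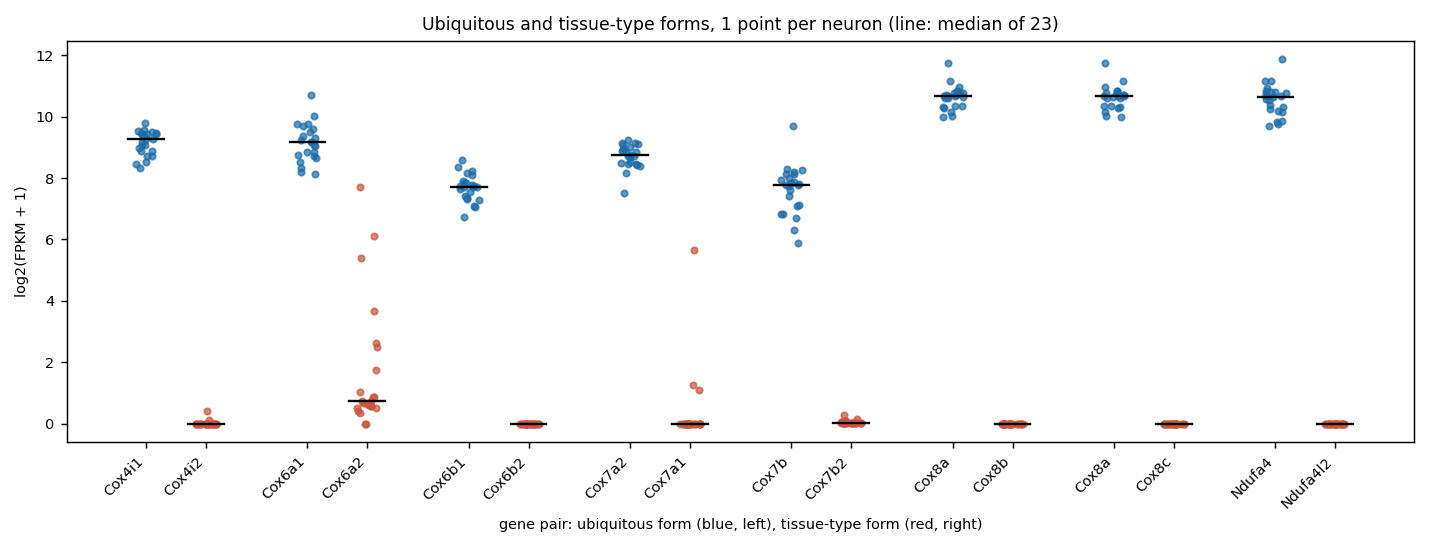
Ubiquitous form (blue, left) and tissue-type form (red, right) of each pair in 23 neurons, on the log2(FPKM + 1) scale, with 1 point per cell and a line at the median. The ubiquitous forms lie between 58.7 and 3778 FPKM, and above 1 FPKM the red points are 8 cells of Cox6a2 and 3 of Cox7a1.

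The muscle forms Cox6a2 and Cox7a1 were the exceptions, in single cells. The ubiquitous form Cox6a1 had a median of 581 FPKM (279 to 1679). Cox6a2 is the heart and skeletal muscle form of a membrane subunit at the dimer interface of the complex (chr7:128205435-128206366). Of the 23 cells, 8 had at least 1 FPKM of it, a share of 34.8% with a 95% interval of 16.4% to 57.3% by the same exact method, and 4 had at least 10 FPKM. These were cell 2 with 208 FPKM, cell 18 with 67.8 FPKM, cell 15 with 40.8 FPKM and cell 16 with 11.8 FPKM. The other 19 cells were at or below 5.22 FPKM, and the median was 0.649 FPKM. In cell 2 Cox6a2 made up 21% of the summed FPKM of Cox6a1 and Cox6a2, in cell 18 10.4% and in cell 15 5.8%. Cox6a1 had 783 FPKM in cell 2 and was at least 3.77-fold higher than Cox6a2 in every cell with a value above 0 for both. Cells 2 and 15 belong to the Sst-high class described below, and cells 16 and 18 to none of the peptide classes. The other Sst-high cells had 2.35 FPKM (cell 9) and 0.841 FPKM (cell 14) of Cox6a2, so the class did not share this level.

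Cox7a2 had 434 FPKM in the median cell (181 to 610). Its muscle form Cox7a1 (chr7:30184171-30186030) was listed at 0 in 20 cells and had 49.3 FPKM in cell 3, 1.38 FPKM in cell 12 and 1.15 FPKM in cell 7. In cell 3 Cox7a2 had 356 FPKM. No cell had both Cox6a2 and Cox7a1 at 10 FPKM. Mural cells of brain vessels are known to make some of the tissue-type forms, Cox4i2 and Ndufa4l2 among them; the summed mural markers were between 0 and 5.75 FPKM over all cells, highest in cell 16, and their part in these values was not tested.

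The sequences before the starts of Cox8a and Cox7a2 and of their muscle forms are printed here because the ubiquitous and muscle forms differ there in CpG content. The 120 bases before each start are from RefSeq on GRCm38.p6, 5′ to 3′ on the strand of the gene, and capitals mark CpG. They lie at chr19:7217617-7217736 (minus strand, Cox8a), chr7:140900447-140900566 (minus strand, Cox8b), chr9:79759854-79759973 (minus strand, Cox7a2) and chr7:30184051-30184170 (plus strand, Cox7a1).
Cox8a: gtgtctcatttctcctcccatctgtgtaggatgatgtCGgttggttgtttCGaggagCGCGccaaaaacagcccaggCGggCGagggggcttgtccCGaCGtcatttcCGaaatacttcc
Cox8b: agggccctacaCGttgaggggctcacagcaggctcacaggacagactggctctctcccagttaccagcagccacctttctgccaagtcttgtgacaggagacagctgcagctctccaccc
Cox7a2: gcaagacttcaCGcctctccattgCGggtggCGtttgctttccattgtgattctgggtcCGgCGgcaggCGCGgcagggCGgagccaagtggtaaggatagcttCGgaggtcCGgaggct
Cox7a1: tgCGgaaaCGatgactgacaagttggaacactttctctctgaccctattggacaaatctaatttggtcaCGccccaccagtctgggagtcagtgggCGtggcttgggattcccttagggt

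The window of Cox8a holds 9 CpG and that of Cox8b 1, and the window of Cox7a2 holds 10 and that of Cox7a1 4. In the full 300 bases of each RefSeq promoter, 250 before the start and 50 after it, the counts were 19 for Cox8a and 2 for Cox8b, 20 for Cox7a2 and 7 for Cox7a1, and 17 for Cox6b1 and 10 for Cox6b2. RefSeq promoters were matched for 69 of the 84 members, 75 promoters in all. The members' promoters had a median of 19 CpG, against 7 for all 32851 promoters searched. The ETS-factor motif CCGGAAG, searched on both strands, was found in 16 of the 75 promoters, 21.3%, against 8.86% of all promoters. GABPA, an ETS factor also called NRF2, is a known activator of this pathway. The core GCATGCG of the palindromic NRF1 motif, also searched on both strands, was found in 11 of the 75, 14.7%, against 3.58% of all. The TATA box, searched as TATAAA on both strands, was found in 8 of the 75, 10.7%, against 13.6% of all. Among the 6 paralog promoters, the ETS motif was found in Cox8a (2 matches) and Cox6b1 (1 match). The ETS and NRF1 motifs each hold a CpG. The members' promoters and all promoters were not matched for CpG content or for the level of their genes in these cells. The parts of CpG content and of level in these contrasts were not tested. A match describes letters and is not evidence of binding.

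From cell to cell the members varied less than most genes, and the gap was smaller among genes of like level. Among genes with a median of at least 10 FPKM, the SD of log2 values over cells had a median of 0.58 for the 74 members and 1.46 for all 3505 genes. Above 100 FPKM the medians were 0.58 for 64 members and 0.78 for 767 genes, and without cell 17 they were 0.47 and 0.62. When genes were grouped by level in steps of 0.8 on the log2 scale, 44 of the 71 members in those groups lay below the median SD of all genes of their group. At the group centred on 7.8 the members' median SD was 0.66 and that of all genes 0.86. At the group centred on 9.4 the values were 0.56 and 0.54.

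**Figure D3:**
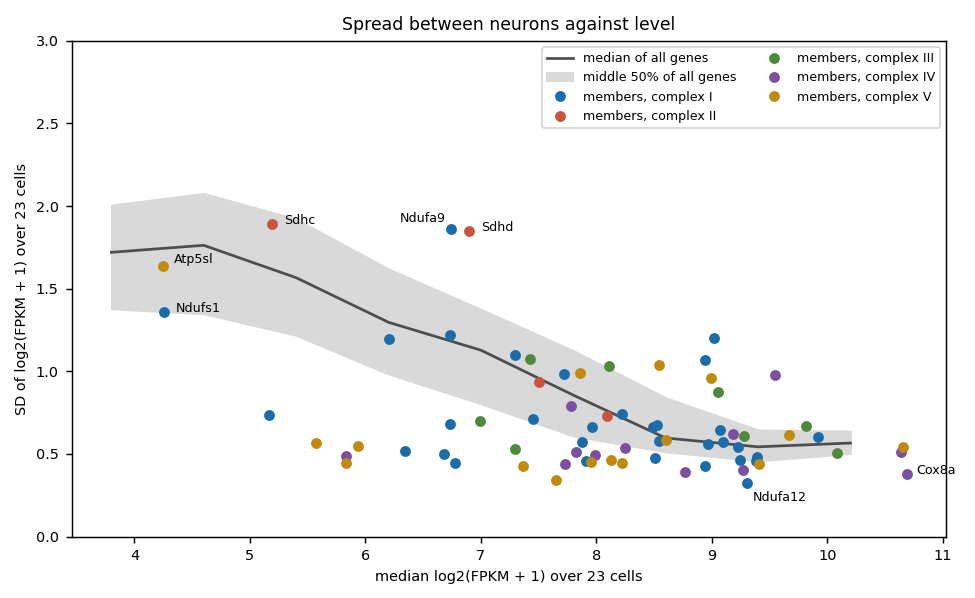
SD over 23 cells against the median level, both on the log2(FPKM + 1) scale; points are members with a median of at least 10 FPKM coloured by complex, the line is the median of all genes in each step of level and the band their middle 50%. Most members of medium level lie under the line and those of the highest level lie around it, while Ndufa9 and Sdhd lie far above it.

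Of the 74 members with a median of at least 10 FPKM, the steadiest were Ndufa12, an accessory subunit of complex I, with an SD of 0.33 and 631 FPKM (441 to 1198), and Atp5f1, subunit b of the ATP synthase stalk, with an SD of 0.34 and 200 FPKM (106 to 290). Atp5f1 shares 38.7% of its windows with other annotated genes. These include Wdr77, whose locus overlaps it by 751 bases on the other strand and whose median was 23.6 FPKM. Cox8a, Cox7a2 and Cox4i1 followed with SDs of 0.38, 0.39 and 0.40. All of these were above 100 FPKM in every cell.

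Of the same 74 members, the most variable were Sdhc (SD 1.89), Ndufa9 (1.86), Sdhd (1.85), Atp5sl (1.64) and Ndufs1 (1.36). Sdhc was at 0.280 FPKM in cell 20, 0.998 FPKM in cell 11, 1.85 FPKM in cell 8, 2.08 FPKM in cell 17 and 5.1 FPKM in cell 14, and at 15.9 FPKM or more in the other 18 cells. Ndufa9, an accessory subunit next to the quinone site, was at 1.45 FPKM in cell 6, 3.07 FPKM in cell 17 and 5.82 FPKM in cell 14, and at 14.9 FPKM or more elsewhere. Sdhd was at 0.698 FPKM in cell 19, 3.32 FPKM in cell 17 and 9.15 FPKM in cell 12, and at 42.2 FPKM or more elsewhere. Ndufs1 was at 0.679, 1.02 and 1.5 FPKM in cells 23, 19 and 16, all of set 2.

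Apart from cell 17, and from cell 14 for Sdhc and Ndufa9, the low values of Sdhc, Sdhd and Ndufa9 fell in different cells. Apart from cell 17, a member with a median of at least 10 FPKM was under 5% of its median in 8 values, spread over 6 genes. Of the 74 members, 59 never fell under 5% of their median in any cell. In each of the other 22 cells, 0 to 2 members were that low. Of all genes with a median of at least 10 FPKM, 0.94% to 17.3% were that low in these cells. The members and all genes were not matched for level. Correlations between members were low in these libraries, and pairs of other genes were not set beside them. Over the 2701 pairs of the 74 members, Pearson's r of log2 values across the 23 cells had a median of 0.14, with 0.14 within a complex and 0.15 between complexes. Without cell 17 the median was 0.18. These are descriptions over cells that share 1 set of libraries, and at these depths a weak correlation is no finding.

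Summed over all members, the pathway made up a median of 5.72% of a cell's total FPKM, from 4.49% in cell 22 to 7.92% in cell 2. Their summed level was 29096 FPKM in the median cell, 21732 FPKM in cell 21 and 54420 FPKM in cell 17. The median deviation of the 74 members from their own medians ran from −0.43 in cell 21 to 0.43 in cell 2 on the log2 scale. Relative depth was 0.812 in cell 21, 1.49 in cell 2 and 1.43 in cell 17, on a scale where cell 12 is 1, and its part in these values was not tested.

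Cell 17 had a different balance of members from any other cell. It had 4054 genes at or above 1 FPKM, whereas the other 22 cells had 6004 to 8042. The SD of the member deviations within the cell was 2.35 in cell 17 and between 0.32 and 0.99 in the other 22 cells. Of the 74 members, 18 (24.3%) were at least 4-fold below their median in cell 17, where 61.2% of all genes at that level were. At least 2-fold above the median were 29 members (39.2%) and 17.5% of all genes. Above 100 FPKM, 25% of members and 34.3% of all genes were at least 4-fold below. The median deviation of all genes in cell 17 was −3.03, and in the other 22 cells it was between −0.39 and 0.20. Cell 17 gave the highest value of 31 members and the lowest of 15. The same counts over all genes are not given here, so these 2 counts cannot be read as a trait of the members.

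All 4 complex II genes were among the low ones: Sdha with 13.7 FPKM in cell 17, against a median of 181 FPKM in the other 22 cells, Sdhb with 43.2 against 274, Sdhc with 2.08 against 35.9, and Sdhd with 3.32 against 122. In complex I, 7 of 34 members were at least 4-fold below and 14 at least 2-fold above. The low ones included Ndufb7, a membrane-arm subunit facing the intermembrane space, with 14.7 FPKM in cell 17 and 564 FPKM (174 to 838) in the other cells.

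In complex V, 4 of 16 were low, among them both subunits of the catalytic head. Atp5a1 had 12.7 FPKM in cell 17 and 373 FPKM (201 to 512) in the others, and Atp5b 25.2 FPKM in cell 17 and 518 FPKM (301 to 781) in the others. Other small subunits of the same complexes were high in cell 17. Uqcrb had 3803 FPKM there and 507 FPKM (175 to 767) in the others, Ndufa5 1546 FPKM and 372 FPKM (227 to 543), and Atp5k 4803 FPKM and 1553 FPKM (716 to 2415). Complex IV had 1 low member, Cox5b, with 37.7 FPKM in cell 17 and 765 FPKM (399 to 1191) in the others.

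The 18 low members had a median transcript length of 1534 bases and the other 56 of 693.5 bases. Their GC content was 52.6% and 51.4%, and their median level in the other 22 cells 198 FPKM and 329 FPKM. Among genes outside the set, Cyc1, cytochrome c1 of complex III, had 6.31 FPKM in cell 17 and a median of 148 FPKM over all cells, while Cycs, cytochrome c, had its highest value, 237 FPKM, in cell 17. The parts of transcript length, level and library quality in this balance were not tested.

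**Figure D4:**
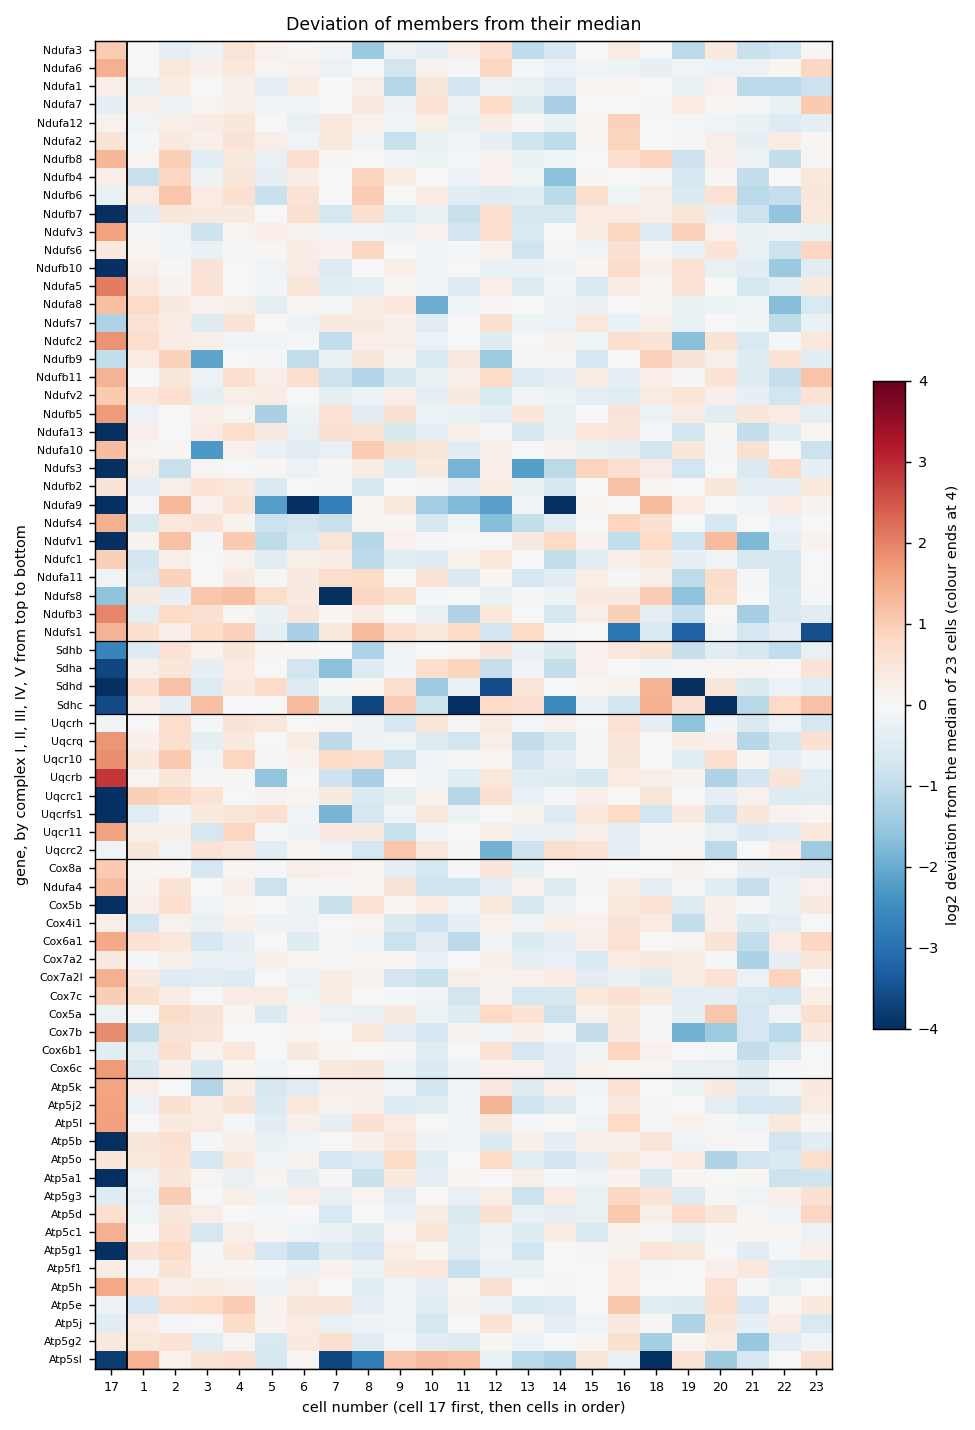
Log2 deviation of members with a median of at least 10 FPKM from their own medians over 23 cells, with complexes I to V from top to bottom and cell 17 in the first column; red is above the median, blue below, and colours end at 4. In cell 17, 24.3% of the members are at least 4-fold below their median, including all 4 genes of complex II, against 61.2% of all genes at that level. At least 2-fold below are 20 members in cell 17 and at most 9 in any other cell.

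Peptide classes were cut from single transcripts: Kiss1-high (500 FPKM or more, 5 cells), Pomc-high (1000 FPKM or more, 8 cells), Sst-high (500 FPKM or more, 4 cells), Npy-high (500 FPKM or more, 2 cells) and 5 remaining cells, with cell 15 in both the Sst and the Npy class. Kiss1, Pomc, Sst and Npy encode neuropeptides that act in reproduction, feeding and growth. They are ranges of 1 transcript and not cell types. The lowest cell inside had 895 FPKM of Kiss1 and the highest outside 62.5 FPKM. For Pomc these values were 1488 and 922 FPKM, for Sst 903 and 177 FPKM, and for Npy 2539 and 20.6 FPKM.

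The members' level differed little between these classes. In the class and set comparisons, shares of members are of the 74 with a median of at least 10 FPKM. Shares of all genes are of the 3505 genes at that level. A median of at least 100 FPKM was reached by 64 of these members and 767 of these genes. The shares are thus not matched for level, and its part in them was not tested. In the Kiss1-high cells (8, 17, 19, 20 and 23) the median member differed from the other 18 cells by 0.09 on the log2 scale, while the median of all genes differed by −0.25. Rescaling each cell to the same sum gave −0.044 for the members. No member was at least 2-fold higher (all genes 5.48%), and 3 members, 4.05%, were at least 2-fold lower (all genes 29%). Sdhc had 2.08 FPKM (0.280 to 81.1) in Kiss1-high cells and 35.9 FPKM (0.998 to 98.0) in the others, Atp5sl 6.15 FPKM (0.358 to 27.9) and 18.4 FPKM (0.163 to 48.3), and Sdhb 142 FPKM (43.2 to 222) and 289 FPKM (136 to 404). The ranges overlapped for each of the 3. Cell 17 is 1 of the 5 Kiss1-high cells, and the Sdhc median of 2.08 FPKM is its own value. Without it the Kiss1-high medians were 28.1 FPKM for Sdhc and 169 FPKM for Sdhb. The median member difference was then 0.06, against −0.16 for all genes, none was at least 2-fold higher (all genes 5.93%), and 2 members were at least 2-fold lower (all genes 24.2%), Ndufs1 with −1.79 and Sdhc with −1.55. Within set 2 (4 Kiss1-high cells, 4 others) the median member difference was 0.092, with 2 members (2.7%) at least 2-fold higher, where 8.13% of all genes were, and 4 (5.41%) at least 2-fold lower, where 33.8% of all genes were. Within set 1 cell 8 is the only Kiss1-high cell. Set against the other 14 it gave a median member difference of 0.095, with no member at least 2-fold higher (all genes 14.3%) and 8 members, 10.8%, at least 2-fold lower (all genes 30.6%). With the threshold of the class doubled, 7 members were past 2-fold, and the share of all genes at that threshold is not given here.

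In the Pomc-high cells the median member differed from the other 15 cells by −0.17 on the log2 scale, against −0.03 for all genes. With the threshold of the class doubled the member difference was 0.081. No member was at least 2-fold higher (all genes 8.07%), and 1 was at least 2-fold lower (1.35% of members, 7.3% of all genes): Ndufa9, with 63.3 FPKM (1.45 to 155) in Pomc-high cells and 113 FPKM (3.07 to 260) in the others. The members' share of summed FPKM was 5.02% (4.49% to 6.4%) in Pomc-high cells and 5.95% (4.72% to 7.92%) in the others.

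The Pomc-high difference was not the same within the sets. Within set 1 (6 Pomc-high cells, 9 others) the median member difference was −0.03. Within set 2 (cells 21 and 22, against 6 others) it was −0.44, with 13 members (17.6%) at least 2-fold lower, where 16.8% of all genes were, and 1 member higher, where 18.6% of all genes were. In that set 15 members had both Pomc-high values below all 6 others, a pattern found for 3.25% of all genes, and none had both above, a pattern of 2.85% of all genes. Uqcrq, for example, had 409 and 567 FPKM in cells 21 and 22, against 902 to 3081 FPKM in the other 6. Cells 21 and 22 were also among the shallowest libraries by estimated relative depth (0.812 and 0.758), and the part of depth was not tested.

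**Figure D5:**
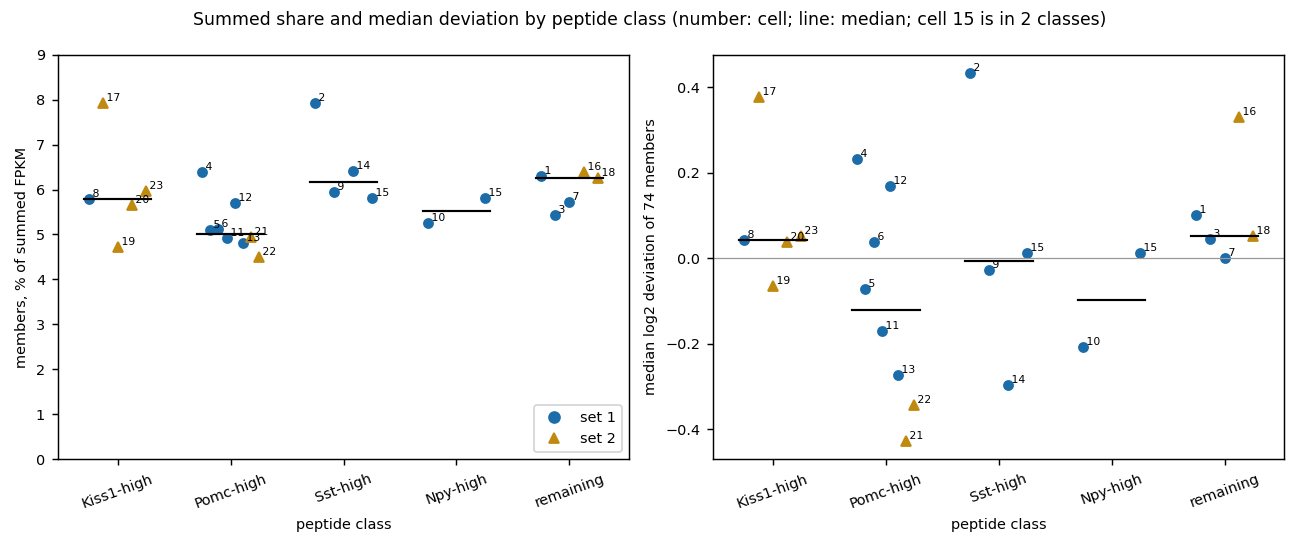
Share of summed FPKM held by the 84 members (left, in %) and median log2 deviation of the 74 members (right) for each neuron by peptide class, with cell numbers, a line at the class median and symbols for title set 1 (circles) and set 2 (triangles). Classes overlap in both panels; cells 2 and 17 have the highest shares, and cells 21 and 22 of the Pomc-high class the lowest deviations.

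Sst-high cells had a median member difference of 0.01 from the other 19 cells, with no member past 2-fold in either direction (all genes 7.3% higher and 12.6% lower). The median difference was 0.24 after rescaling each cell to the same sum and −0.13 with the threshold of the class doubled. All 4 Sst-high cells are in set 1, and within that set the difference was 0.026. Sst itself was at most 0.608 FPKM in set 2 cells and at least 18.6 FPKM in set 1 cells. The 2 Npy-high cells had a difference of −0.10, with Atp5sl at least 2-fold higher (all genes 9.16%, 34.5 FPKM, against 14.8 FPKM in the other 21) and Ndufa8, an accessory subunit of complex I, lower (all genes 23.1%, 199 FPKM, against 371 FPKM in the others). Both Npy-high cells are in set 1, and within that set the difference was also −0.10.

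Titles of cells 1 to 15 begin with JCb5.2 (set 1) and those of cells 16 to 23 with JCb6 (set 2), and the labels do not explain these prefixes. Set 1 differed from set 2 by 0.02 in the median member and by 0.09 in the median of all genes on the log2 scale. Without cell 17, a set 2 cell, these differences were −0.0065 and −0.0060, so both directions turned without that 1 library. One member, Ndufs1, was at least 2-fold higher in set 1 (all genes 15.9%), with 24.7 FPKM (6.8 to 44.2) in set 1 and 11.2 FPKM (0.679 to 48.5) in set 2, and none was at least 2-fold lower (all genes 3.97%). No member had every set 1 value above or below every set 2 value (all genes 0.0285% above and 0% below). Sets and peptide classes are mixed unevenly: set 2 holds 4 of the 5 Kiss1-high cells and none of the Sst-high or Npy-high cells.

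Related gene lists gave a setting for these levels. All 6 subunits and carriers outside the symbol rule reached 1 FPKM in every cell, led by Atpif1, the inhibitor of ATP synthase running in reverse, with 1141 FPKM (686 to 3004). Of 40 assembly factors, 38 were found by symbol, and 9 of these reached 1 FPKM in all cells. The median of the 84 members was 243 FPKM and that of the assembly factors 15.8 FPKM. The highest assembly factors were Coa3 (246 FPKM) and Cox20 (143 FPKM), both of complex IV, and Tmem70 (72.5 FPKM), of ATP synthase.

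Of 13 genes of mitochondrial DNA upkeep and expression, 1 reached 1 FPKM in every cell, the RNA-stabilising Slirp with 479 FPKM, and the list's median was 2.38 FPKM. None of 10 nuclear regulators did so, and their median was 0.50 FPKM. Among them Gabpa had 1.03 FPKM (0.185 to 8.94) and reached 1 FPKM in 13 cells, Nrf1 did so in 4 cells, and the coactivator Ppargc1a in 4. Hif1a, the hypoxia regulator, was the highest of this list with 16.7 FPKM (0.0797 to 71.1). A value under 1 FPKM in a single cell does not show that a gene was off.

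The fuel-supplying pathways were at intermediate levels. Of 16 genes of pyruvate dehydrogenase and the citrate cycle, 8 were at 1 FPKM or more in each cell. The median of the list was 53.2 FPKM, and Mdh2, malate dehydrogenase, was highest at 557 FPKM (363 to 885). Of 17 glycolytic genes, 14 did so; the list's median was 112 FPKM, and it was led by Aldoa, aldolase A, at 683 FPKM (448 to 1134). Hexokinase 1, the usual brain form, had 64.7 FPKM (1.78 to 109), and the muscle form Hk2 was at 1 FPKM in 2 cells. Of 13 carriers and pores, 8 reached 1 FPKM in all cells. The ATP/ADP carrier Slc25a4 had 900 FPKM (493 to 1263) and the phosphate carrier Slc25a3 463 FPKM (231 to 936).

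Among the uncoupling proteins, Ucp2 reached 1 FPKM in 16 cells with a median of 6.38 FPKM, and its highest values, 92.1 FPKM in cell 19 and 79.3 FPKM in cell 8, were both in Kiss1-high cells. The other 3 Kiss1-high cells had 0.578 FPKM (cell 17), 1.24 FPKM (cell 20) and 0.205 FPKM (cell 23), so the class did not share this level. Ucp1 reached 1 FPKM in 6 cells and Ucp3 in 1. Of 6 antioxidant genes, 5 reached 1 FPKM in every cell, and Sod1, the cytosolic superoxide dismutase, had 1545 FPKM (791 to 2466), a level near those of Cox8a and Atp5k.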

How the data were processed

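Each GFP-positive neuron was lysed and its polyadenylated RNA amplified by SmartSeq2; the labels' protocols name the Ovation Rapid kit of NuGen for the libraries. The submitters' processing notes list CASAVA 1.8, TopHat, Cufflinks and the mm10 build, while the annotation is not given in the sources used here. FPKM values per gene and cell were deposited by the authors; the unit is recorded as other, since leftover rows hold negative cells. Of 23896 rows, 12 without a gene and 286 identical copies were left out, 27 date-like names were kept apart, and rows of 124 symbols were summed. FPKM carries no read number, so absolute depth is unknown. SmartSeq2 has no molecular identifiers. The intervals are on the number of cells at 1 FPKM and cover counting error only, not differences between mice. The libraries are not stated to keep strand, so overlapping genes cannot be told apart.

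Members, lists, classes and alternatives were chosen with earlier results of these data known. Named genes are the 3 highest and 2 lowest per complex, all paralog pairs, the 5 highest and 5 lowest SDs, up to 5 differences per direction and the leading genes of each list. A gene that the rule selects is not reported here by name, nor drawn as a gene in the plots; counts and medians over members include it. Differences are of group medians of log2(FPKM + 1). Transcript length, GC and windows of 50 bases shared with other genes come from GENCODE mouse release 21. The steps were tested on simulated data. Tables were handled with pandas 2.3.3 and numpy 2.4.6 in Python 3.11.15, intervals came from scipy 1.17.1 and plots from matplotlib 3.10.9. Alternatives were other pseudocounts, thresholds and filters, rescaling, and each set alone.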

Additional observations from a re-analysis of the deposited data

How the results depend on the processing

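Of 145 alternative values for 25 results, 120 stayed within a set limit. This limit was the spread between cells, or 1.5 times for counts. For the members' median SD it was the SD over members of their SDs. Sign changed only for small median differences between groups of cells: Kiss1-high cells had −0.044 after rescaling against 0.09, Sst-high cells −0.13 with doubled thresholds against 0.01, and set 1 minus set 2 −0.0065 without cell 17, the 1 cell with fewer than 6000 genes, against 0.02. Rescaling each cell to a sum of 1000000 raised the log2 level to 9.09 in complex I, 9.47 in complex III, 8.70 in complex IV, 8.85 in complex V and 8.92 over all members, since the deposited sums lie below that total, and gave 0.24 for the Sst-high difference. Complex IV stood at 8.50 with members of a median of at least 1 FPKM. Leaving out members that share at least 25% of windows, an alternative chosen after seeing the data like the one without cell 17, gave 8.11 for complex III and 5.83 for complex IV. The latter is the value of Cox6c alone, with the 8 tissue-type forms still counted. With a pseudocount of 0.1 the paralog differences were 12.59 for Cox4i1, 11.04 for Cox6b1, 12.08 for Cox7a2, 10.93 for Cox7b, 14.01 for Cox8a against Cox8b and Cox8c, and 13.96 for Ndufa4, because the partner lies at or near 0. The Pomc-high median difference, −0.17 as reported, also changed sign, to 0.081, with doubled class thresholds and was −0.44 in set 2 alone. The number of members past 2-fold for Kiss1-high cells was 7 with doubled thresholds, 8 in set 1 alone and 6 in set 2 alone, against 3. For Pomc-high cells it was 0 after rescaling, 0 with halved thresholds, 2 with doubled thresholds and 14 in set 2 alone, against 1. The shares of all genes with changed thresholds and after rescaling are not given here. No paired analysis was possible because the cells form 1 group and share no replicate numbers across groups.

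Depth limits the lowest members most: read numbers are unknown, so a value near 1 FPKM in 1 cell rests on an unknown number of fragments, and a value listed at 0 does not show that a gene was silent.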
